A study of Mus musculus with 6 samples.

Results

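Expression of 9 genes of retinoid handling was followed as mouse epiblast stem cells turned towards neural plate: Stra6, Crabp1 and Crabp2, Rdh10, Dhrs3 and Aldh1a2, and Cyp26a1, Cyp26b1 and Cyp26c1. They were taken as every probe whose RefSeq accession on the array maps to 1 of these 9 symbols, which gave 9 probes, 1 for each gene, among probes for 20274 named genes. Epiblast stem cells (EpiSCs) are pluripotent cells taken from the post-implantation epiblast, here of strain 129/Sv. In the EpiSC group they were held under the condition that maintains them as epiblast, and in the NPC1 and NPC2 groups they had spent 1 day and 2 days in a condition that leads to neural plate. Each group held 2 cultures, A and B, all grown from a single seed culture, so the p-values reflect no more than how these cultures varied, and that variation may be technical. The sources used here do not say whether the media held retinol or retinoic acid.

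Retinoic acid is a small lipid made from vitamin A (retinol) that switches genes on through nuclear receptors bound to DNA. Retinol reaches cells on a carrier protein and enters through the membrane receptor STRA6. RDH10 oxidises it to retinaldehyde, DHRS3 reduces retinaldehyde back to retinol, and ALDH1A2 turns retinaldehyde into retinoic acid, a step that is not reversed. The cytosolic proteins CRABP1 and CRABP2 bind retinoic acid, CRABP2 passing it to the nuclear receptors, and the CYP26 enzymes oxidise it for removal. In the mouse embryo, Aldh1a2 of the paraxial mesoderm supplies retinoic acid to the adjoining posterior neural plate, and Cyp26a1 and Cyp26c1 in the anterior head keep the future forebrain and midbrain clear of it.

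The 6 RNA samples, Cy3-labelled, were each read on a 1-colour array of the same slide. An array had 59305 non-control spots, 58.2% to 61.1% of them well above background and 0 saturated. The 75th percentile of the processed signal, to which arrays were scaled, was 394 to 430. Values below are processed signals, in intensity units and before that scaling, while changes are differences of scaled log2 signals with their moderated standard error (SE), tested by limma across all genes. A gene was tested if at least 1 group had its probe well above background on both of its arrays, a condition met by 14773 genes. The 6 EpiSC markers examined (among them Pou5f1, Nanog and Fgf5) were well above background on all 6 arrays, and in NPC2 against EpiSC 5 of them were lower and Nanog higher (1.76-fold). The 6 neural plate markers (among them Sox1, Sox2 and Hes3) were well above background on both NPC2 arrays and all higher there than in EpiSC. Of those 6, Hes3 alone was well above background on no EpiSC or NPC1 array, so its detection set NPC2 apart. Detection of the other 5 does not tell the groups apart. Duplicate arrays correlated at r = 0.9971 to 0.9976 across genes, which are not independent replicates. RNA came from whole cultures, so fewer cells that express a gene and less RNA per cell cannot be told apart.

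Of the 9 genes, 7 entered the test. After 2 days all 7 had changed from EpiSC: Crabp2, Stra6, Crabp1, Cyp26a1 and Aldh1a2 were higher, and Rdh10 and Dhrs3 lower. Stra6, Crabp1 and Crabp2 rose on both days (as did 9.39% of all genes tested), while the enzyme genes Dhrs3 and Aldh1a2 were lowest on day 1 and Cyp26a1 rose only between day 1 and day 2. Over all genes tested, 69% passed an adjusted p of 0.05 in NPC2 against EpiSC (28.3% higher and 40.7% lower), so that a call by itself sets none of the 7 apart. A rise of at least 2-fold was seen for 4 of the 7, against 9.69% of all genes tested. The median log2 change of the 7 was 1.26, and that of all genes tested -0.098. Stra6 passed the condition on background through NPC1 and NPC2 alone, so these figures describe the 7 and support nothing further.

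**Figure D1:**
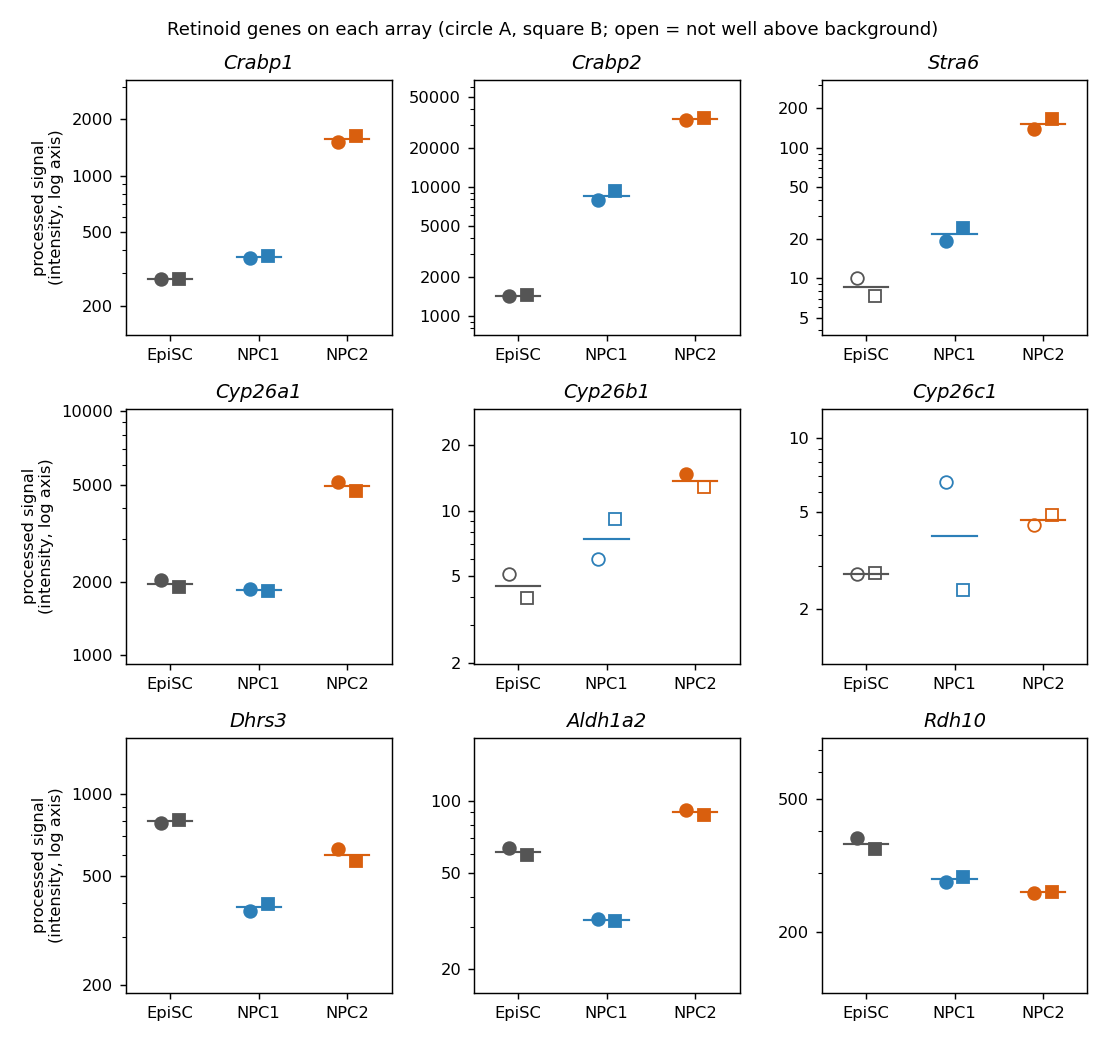
Processed signal (intensity, log axis) of the 9 retinoid genes on each array, with circles for culture A, squares for culture B, open symbols for spots not well above background and bars for the geometric mean of the 2 arrays. Crabp1, Crabp2 and Stra6 step up on both days, Dhrs3 and Aldh1a2 are lowest in NPC1, and Cyp26b1 and Cyp26c1 lie near or below background.

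Crabp2 rose on both days. Its signal was 1412 and 1438 in EpiSC, 7919 and 9252 in NPC1, and 33125 and 34000 in NPC2 (cultures A and B). No array of any group overlapped with another group, and each day's rise was far wider than the gap between duplicates. On the scaled log2 axis the means were 2.00 ± 0.015 in EpiSC, 4.60 ± 0.096 in NPC1 and 6.49 ± 0.036 in NPC2 (SD, n = 2 arrays each). The gene was 6.04-fold higher in NPC1 than in EpiSC (log2 change 2.60 ± 0.062, limma adjusted p = 7.32e-05) and 22.5-fold higher in NPC2 than in EpiSC (log2 change 4.49 ± 0.062, adjusted p = 6.3e-06). Between the days it rose 3.73-fold (log2 change 1.90 ± 0.062, adjusted p = 7.66e-05).

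Crabp1, its close relative, followed another course. The signal was 278 and 279 in EpiSC, 361 and 372 in NPC1, and 1521 and 1634 in NPC2. The day 1 arrays were above the EpiSC arrays by less than the NPC2 arrays were above them. It was 1.32-fold higher in NPC1 than in EpiSC (log2 change 0.40 ± 0.058, limma adjusted p = 0.00457) and 4.09-fold higher in NPC2 than in NPC1 (log2 change 2.03 ± 0.058, adjusted p = 6.02e-05), or 5.41-fold higher in NPC2 than in EpiSC (log2 change 2.44 ± 0.058). The difference between the 2 daily steps was itself tested, in a contrast added after the data were seen: NPC2 minus NPC1, less NPC1 minus EpiSC. For Crabp1 the second step was larger than the first by 1.63 ± 0.10 on the log2 scale (adjusted p = 0.000928). For Crabp2 it was smaller, by -0.70 ± 0.11 (adjusted p = 0.0108). Over all genes tested, 29.5% had a call in this contrast, 14% for a second step above the first and 15.5% for one below it.

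Stra6, the gene of the retinol receptor, was dim in EpiSC. Its signal was 9.99 and 7.37 there, not well above background on either array, then 19.4 and 24.4 in NPC1 and 139 and 165 in NPC2, all well above background. The 3 groups did not overlap. EpiSC therefore gives only a bound. The rise is stated against the higher, on each EpiSC array, of the gene's own signal and the lowest signal well above background. Stra6 was at least 2.24-fold higher in NPC1 than in EpiSC and at least 14.8-fold higher in NPC2 than in EpiSC. These bounds were not tested. The limma test used the EpiSC signals as read, with changes of 2.55-fold (adjusted p = 0.0042) and 16.9-fold (adjusted p = 6.02e-05). Between NPC2 and NPC1, both measured, the rise was 6.62-fold (log2 change 2.73 ± 0.19, adjusted p = 0.00045). With normexp background correction, which adds an offset of 50 to signals of this size, the log2 changes were smaller and still called: 0.19 in NPC1 against EpiSC, 1.46 in NPC2 against EpiSC, and 1.26 in NPC2 against NPC1. The carrier of retinol in blood, Rbp4, which is also made by visceral endoderm, had a log2 change of 0.83 ± 0.057 in NPC2 against EpiSC (adjusted p = 0.00021) and is named here after its values were seen. Of 7 visceral endoderm markers, Ttr, Apoa1 and Hnf4a were well above background on no array. Afp and Apob were well above background on both EpiSC arrays and on no NPC1 or NPC2 array. All 4 tested were lower in NPC2 than in EpiSC, as were 40.7% of all genes. Afp was lower by at least 3.69-fold and Apob by at least 2.47-fold. Amn and Cubn had log2 changes of -1.16 ± 0.077 and -0.44 ± 0.074. The summed level of the 7 was 0.843 to 0.877 in EpiSC, 0.619 to 0.681 in NPC1 and 0.465 to 0.484 in NPC2, in units of each array's 75th percentile.

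The summed level of 8 fibroblast and feeder markers was 8.18 to 8.61 in EpiSC, 10.7 to 11.1 in NPC1 and 13.0 to 13.7 in NPC2, and its members moved in different directions. Of the 7 tested, 1 was higher, 2 lower and 4 not called in NPC1 against EpiSC (median -0.087, against -0.054 for all genes). There 50.3% of all genes were called. 3 were higher and 2 lower in NPC2 against EpiSC, where 69% of all genes were called. The 1 higher in NPC1 was Thy1 (log2 change 1.09 ± 0.053), and Col1a1 (-0.32 ± 0.079) and Twist2 (-1.67 ± 0.045) were the 2 lower. In NPC2 against EpiSC Col1a2 (1.41 ± 0.13), Thy1 (0.53 ± 0.053) and Postn (at least 1.88-fold) were higher. Twist2 (-1.49 ± 0.045) and Dcn (-0.56 ± 0.18) were lower. In NPC2 against NPC1 4 were higher, 2 lower and 1 not called, where 47.5% of all genes were called. The part of such cells in the rises of Crabp1, Crabp2 and Stra6 was not tested. Of the 8, Lum was well above background on no array, and Postn on no EpiSC or NPC1 array.

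**Figure D2:**
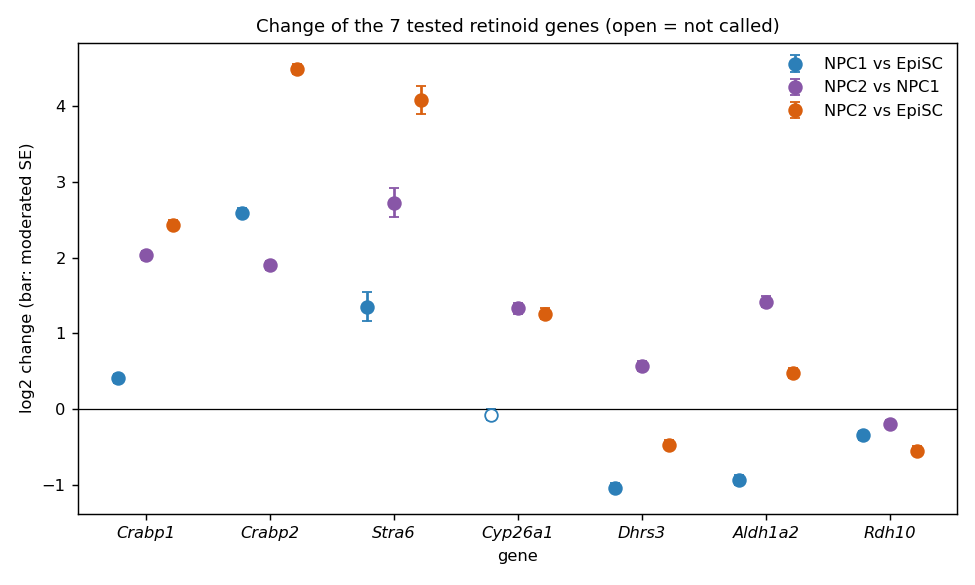
Log2 change of the 7 tested genes in NPC1 against EpiSC, NPC2 against NPC1 and NPC2 against EpiSC, with bars for the moderated SE; the open point was not called. Crabp2 and Stra6 have the highest points, Cyp26a1 shows no called change in NPC1, and Dhrs3 and Aldh1a2 lie below 0 in NPC1 and above 0 in NPC2 against NPC1. The Stra6 points against EpiSC rest on EpiSC signals that were not well above background.

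Rdh10, Dhrs3 and Aldh1a2 fell on the first day. Rdh10, whose product makes retinaldehyde from retinol, had signals of 382 and 353 in EpiSC, 281 and 292 in NPC1, and 262 and 262 in NPC2. EpiSC arrays were highest and NPC2 arrays lowest, with no overlap, and Rdh10 was the 1 gene of the 7 with a called fall on both days, as for 12.5% of all genes tested. Rdh10 was 1.27-fold lower in NPC1 than in EpiSC (log2 change -0.35 ± 0.057, limma adjusted p = 0.00681) and 1.46-fold lower in NPC2 than in EpiSC (log2 change -0.55 ± 0.057, adjusted p = 0.000775). The step between NPC2 and NPC1 was small (log2 change -0.20 ± 0.057, adjusted p = 0.0382). That last call ended without either NPC1 array or either NPC2 array (adjusted p = 0.0884 to 0.138) and with adjustment over probes instead of genes (adjusted p = 0.0714; 31.8% of all probes tested were called). In the authors' value table the changes against EpiSC were -0.23 in NPC1 and -0.33 in NPC2, and still called.

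Dhrs3, whose product runs the reverse reaction, dipped and partly came back. Its signal was 783 and 808 in EpiSC, 373 and 396 in NPC1, and 631 and 569 in NPC2. NPC1 arrays were the lowest, EpiSC arrays the highest, and the groups did not overlap. The gene was 2.06-fold lower in NPC1 than in EpiSC (log2 change -1.04 ± 0.061, limma adjusted p = 0.000408) and 1.48-fold higher in NPC2 than in NPC1 (log2 change 0.57 ± 0.061, adjusted p = 0.0018). After 2 days it was still 1.39-fold lower than in EpiSC (log2 change -0.47 ± 0.061, adjusted p = 0.00174). In the authors' value table this last change was -0.25, also called.

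Aldh1a2, the gene of the enzyme that makes retinoic acid in the early embryo, dipped and then passed its starting level. It had signals of 64.0 and 59.5 in EpiSC, 32.3 and 31.7 in NPC1, and 92.4 and 87.4 in NPC2, all well above background and with no overlap between groups. It was 1.92-fold lower in NPC1 than in EpiSC (log2 change -0.94 ± 0.069, limma adjusted p = 0.000714), 2.67-fold higher in NPC2 than in NPC1 (log2 change 1.42 ± 0.069, adjusted p = 0.000182) and 1.39-fold higher in NPC2 than in EpiSC (log2 change 0.48 ± 0.069, adjusted p = 0.00255). Under normexp correction the same changes were -0.39, 0.64 and 0.25, all called. A fall in NPC1 followed by a rise in NPC2 against NPC1, each called, was found for Dhrs3 and Aldh1a2 of the 7 genes and for 3.39% of all genes tested.

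Markers of other cell types moved beside these genes. The summed level of 6 definitive endoderm markers was 6.50 to 6.78 in EpiSC, 0.578 to 0.683 in NPC1 and 2.84 to 2.98 in NPC2. That course was taken by part of the list. Foxa2 and Foxa1 had log2 changes of -4.09 ± 0.13 and -1.86 ± 0.061 in NPC1 against EpiSC. In NPC2 against NPC1 theirs were 2.22 ± 0.13 and 1.13 ± 0.061, both called. Sox17 was lower at both steps (-2.01 ± 0.25 and -0.87 ± 0.25). Gata6 was lower in NPC1 (-2.14 ± 0.26) with no called change in NPC2 against NPC1. Cxcr4 was higher in NPC2 than in NPC1 (log2 change 4.64 ± 0.45). The sum over 8 paraxial and presomitic mesoderm markers, the tissue in which Aldh1a2 is active in the embryo, was 4.51 to 4.60, 1.09 to 1.14 and 0.870 to 0.890 in the same order. Tcf15 weighed most in that sum: its mean scaled log2 signal in EpiSC was 2.06, and the next of the 5 tested, Tbx6, had -2.18. Tcf15 had log2 changes of -2.49 ± 0.052 in NPC1 and -3.28 ± 0.052 in NPC2 against EpiSC. Mesp1 had -1.34 ± 0.15 and -1.67 ± 0.15. Tbx6 was higher in NPC2 than in EpiSC (0.50 ± 0.066), and Foxc1 and Mesp2 were not called. The median of the 5 tested in NPC2 against EpiSC was 0.019. Meox1 and Msgn1 were well above background on no array. The sum over 6 surface ectoderm markers was 174 to 183, 139 to 150 and 56.6 to 60.8. Krt18 and Krt8 weighed most in it: their mean scaled log2 signals in EpiSC were 7.19 and 4.74, and the next, Trp63, had 2.43. Krt8, Krt18 and Gata3 were lower in NPC2 than in EpiSC (log2 changes -1.93 ± 0.045, -1.71 ± 0.074 and -1.38 ± 0.10). Tfap2a and Trp63 were higher (1.84 ± 0.18 and 0.30 ± 0.10), and Dlx5 was not called. The part of such cells in the courses of Dhrs3 and Aldh1a2 was not tested.

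Cyp26a1 encodes an enzyme that clears retinoic acid and is itself a well-known target of retinoic acid receptors. Its signal was 2032 and 1904 in EpiSC, 1876 and 1841 in NPC1, and 5116 and 4721 in NPC2. After scaling the EpiSC and NPC1 arrays overlapped, and both NPC2 arrays stood above the other 4. The change in NPC1 against EpiSC did not pass (log2 change -0.073 ± 0.072, limma adjusted p = 0.435); it was 0.031 with quantile normalization and 0.051 in the authors' value table. In NPC2 the gene was 2.51-fold higher than in NPC1 (log2 change 1.33 ± 0.072, adjusted p = 0.000232) and 2.39-fold higher than in EpiSC (log2 change 1.26 ± 0.072, adjusted p = 0.000114). The second step exceeded the first by 1.40 ± 0.12 (adjusted p = 0.00236).

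The region before the annotated start of Cyp26a1 is shown because it holds a repeat of the kind bound by retinoic acid receptors. A window of 300 bases (250 before to 50 after each start; RefSeq, GRCm38.p6) was searched on both strands, overlaps allowed, for pairs of half-sites in the same orientation. The half-sites were AGGTCA as well as AGTTCA, and likewise GGGTCA as well as GGTTCA, with 1, 2 or 5 bases between them. The table has 12 windows for 7 of the 9 genes and none for Crabp2 and Rdh10. With a spacing of 5, 32 of 32851 windows (0.0974%) held a match, and 1 of the 12 did, that of Cyp26a1. With spacings of 1 and 2, 0.222% and 0.268% of all windows and 0 of the 12 matched. Rarb, a retinoic acid receptor gene in the lists below, was picked by name and is shown beside it. Its window also holds a match with a spacing of 5. Both runs are the 250 bases before the start, on the gene's strand, at chr19:37697558-37697807 (plus strand) and chr14:16575477-16575726 (minus strand), and the capitals mark the repeat.
Cyp26a1: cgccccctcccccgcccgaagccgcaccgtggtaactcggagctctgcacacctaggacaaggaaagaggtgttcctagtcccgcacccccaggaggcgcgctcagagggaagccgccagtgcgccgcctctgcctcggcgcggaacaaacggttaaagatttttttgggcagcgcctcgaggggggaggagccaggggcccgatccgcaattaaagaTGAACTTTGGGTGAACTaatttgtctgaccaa
Rarb: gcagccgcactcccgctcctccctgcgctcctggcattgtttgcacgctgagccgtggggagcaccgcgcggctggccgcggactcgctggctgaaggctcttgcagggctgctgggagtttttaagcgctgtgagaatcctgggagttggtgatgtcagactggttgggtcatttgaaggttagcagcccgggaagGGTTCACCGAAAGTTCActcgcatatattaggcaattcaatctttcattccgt

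The repeat of Cyp26a1 lies on the opposite strand and ends 15 bases before the annotated start, and that of Rarb lies on the gene's own strand and ends 36 bases before it. Read on the strand that carries them, the repeats are as follows, and are set side by side to show the half-sites.
Cyp26a1 repeat: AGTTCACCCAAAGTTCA
Rarb repeat: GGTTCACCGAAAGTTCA
A match is a description of letters, and no binding was measured. With a spacing of 5, 31 genes held a match, and the courses of the others were not examined. Rarb had signals of 9.70 and 15.8 in EpiSC, 15.6 and 17.6 in NPC1, and 35.7 and 29.9 in NPC2. It did not pass in NPC1 against EpiSC (log2 change 0.43 ± 0.24, limma adjusted p = 0.197) and was higher in NPC2 than in EpiSC, by 2.53-fold (log2 change 1.34 ± 0.24, adjusted p = 0.00577). Its change in NPC1 passed when EpiSC replicate B was left out (adjusted p = 0.0194), and its rise in NPC2 against NPC1 (0.91 ± 0.24, adjusted p = 0.0323) ended without any 1 of the NPC1 or NPC2 arrays (highest adjusted p = 0.133). Under normexp its change in NPC2 against EpiSC was 0.35, still called.

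The other 2 genes of the family were dim. Cyp26b1 had signals of 5.14 and 3.95 in EpiSC, 5.99 and 9.19 in NPC1, and 14.7 and 12.8 in NPC2. Only the NPC2 array of culture A was well above background, so the gene was not tested. Cyp26c1 had signals of 2.77 and 2.80 in EpiSC, 6.58 and 2.39 in NPC1, and 4.39 and 4.82 in NPC2, and no array was well above background. Its annotated start lies 12128 bases before that of Cyp26a1 on chromosome 19, on the same strand, yet the 2 probes differ in whether they were measurable at all.

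The day-by-day counts add the following. In NPC1 against EpiSC, 3 of the 7 tested genes were higher, 3 lower and 1 not called, where 50.3% of all genes were called (21.3% higher, 29% lower), and 2 rose at least 2-fold against 4.44% of all genes; without EpiSC replicate B the count of called genes fell to 4881, against 7433. The 2 that rose at least 2-fold in NPC1 were Crabp2 and Stra6, and Stra6 passed the condition on background through NPC1 and NPC2 alone. In NPC2 against NPC1, 6 were higher and 1 lower, where 47.5% of all genes were called (20.8% higher, 26.6% lower), and 5 rose at least 2-fold against 4.73% of all genes. The members were chosen with earlier results of these data known, so these counts describe the 7 and support nothing further. Of the 7, 6 were called in all 3 comparisons, as were 26.3% of all genes. In NPC1 against EpiSC the arrays of both groups kept apart for 6 of the 7 genes (77.7% of all genes). In NPC2 they kept apart for all 7, both against EpiSC (87% of all genes) and against NPC1 (75.6%). With adjustment over probes, the calls against EpiSC were the same for the 7, where 33.4% of all probes tested were called in NPC1 and 54.5% in NPC2. The comparisons share their groups and are not independent of each other. For Dhrs3 and Aldh1a2 the second step exceeded the first by 1.61 ± 0.11 and 2.36 ± 0.12 (limma adjusted p = 0.00111 and 0.000624), and for Rdh10 the difference of 0.15 ± 0.098 did not pass (adjusted p = 0.311).

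The balance of calls depends on how arrays are scaled. Of the called genes 57.7% were lower in NPC1 against EpiSC. The share was 59% in NPC2 against EpiSC, and 56.1% between the days. In the authors' value table these shares were 37.9%, 38.8% and 41.0%, and under median scaling the first was 71.0%. The median of all genes in NPC2 against EpiSC was 0.125 in the value table and -0.098 here. Relative to the median of all genes, the NPC2 against EpiSC changes were 4.59 for Crabp2, 4.18 for Stra6, 2.53 for Crabp1, 1.36 for Cyp26a1, 0.58 for Aldh1a2, -0.38 for Dhrs3 and -0.45 for Rdh10. Median scaling and the value table shift each array by a constant and so leave these relative values as they are, while quantile normalization gave 4.68 for Crabp2, 2.49 for Crabp1, 1.44 for Cyp26a1, 0.42 for Aldh1a2, -0.42 for Dhrs3 and -0.56 for Rdh10, with Stra6 also above 0.

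**Figure D3:**
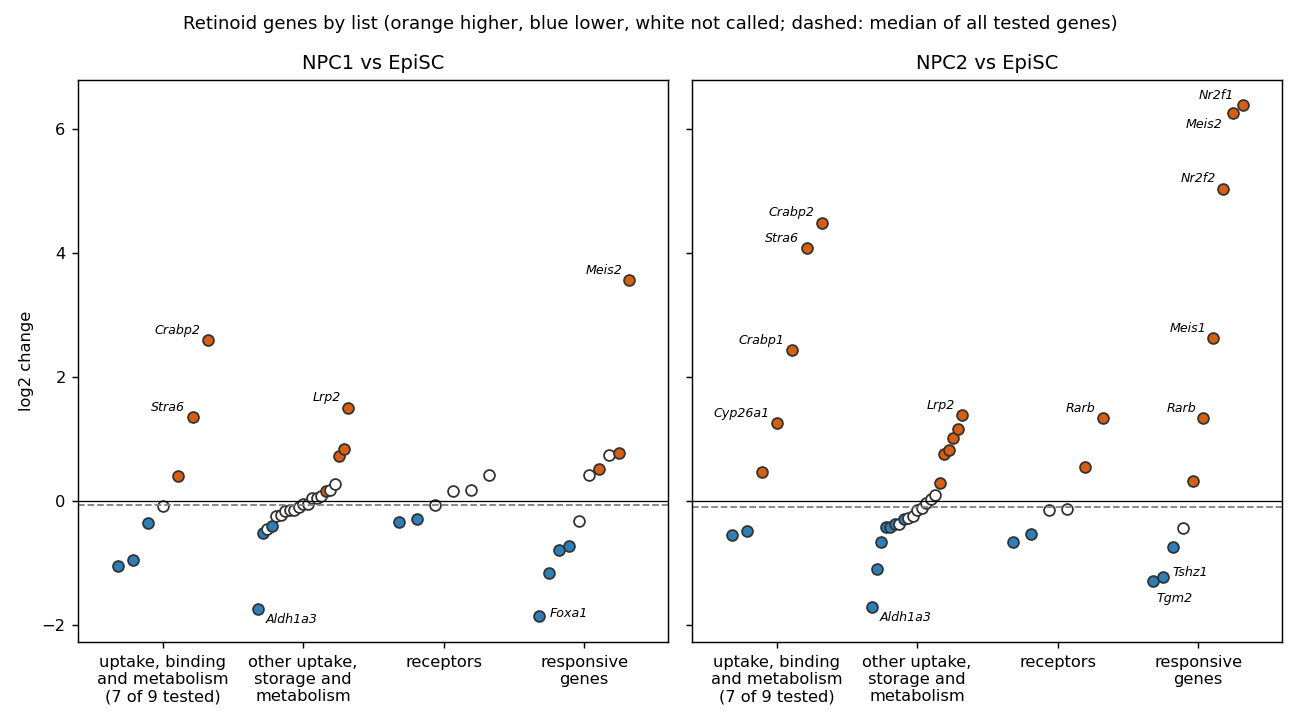
Log2 change of tested genes in NPC1 against EpiSC (left) and NPC2 against EpiSC (right) in 4 lists of retinoid genes, with orange for higher, blue for lower and white for not called, and a dashed line at the median of all genes tested. The spread widens in NPC2, where Crabp2, Stra6, Meis2, Nr2f1 and Nr2f2 lie above 4; Rarb stands in both the receptor and the responsive list, and 1 gene of the responsive list is not drawn.

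Other genes of the pathway were taken from 3 lists. Of 29 further genes of retinoid uptake, storage and metabolism, all on the array, 21 were tested. In NPC2 against EpiSC 6 were higher, 7 lower and 8 not called (median -0.14). That is near the 69% of all genes called, so the count does not set the list apart. In NPC1 against EpiSC 4 were higher, 3 lower and 14 not called, where 50.3% of all genes were called. For the second day, NPC2 against NPC1, 3 were higher, 2 lower and 16 not called, where 47.5% of all genes were called. Lrp2, which encodes megalin, an endocytic receptor that takes up retinol with its carrier, had signals of 3170 and 3435 in EpiSC, 9634 and 9012 in NPC1, and 9322 and 8728 in NPC2. It was 2.61-fold higher in NPC2 than in EpiSC (log2 change 1.39 ± 0.085, limma adjusted p = 0.00014), a rise already present in NPC1 (log2 change 1.51 ± 0.085).

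Rdh5, a retinol dehydrogenase gene known from the eye, was 2.25-fold higher in NPC2 than in EpiSC (log2 change 1.17 ± 0.050, limma adjusted p = 5.04e-05). Rdh11, which encodes a retinal reductase, was 2.14-fold lower (log2 change -1.10 ± 0.068, adjusted p = 0.00015). Aldh1a3, another gene for a retinaldehyde dehydrogenase, had signals of 18.0 and 18.9 in EpiSC, 4.58 and 6.57 in NPC1, and 3.49 and 9.98 in NPC2, with 1 NPC2 array well above background. Its log2 change in NPC2 against EpiSC was -1.71 ± 0.51 (adjusted p = 0.0324). This call ended under 7 settings, among them without either EpiSC array, without either NPC1 array and in the authors' value table (adjusted p = 0.0507 to 0.105). Without NPC2 replicate A the change was -0.94, and with normexp -0.33, both called.

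All 6 receptor genes were tested. On the first day, NPC1 against EpiSC, 2 were lower and 4 not called, where 50.3% of all genes were called. For the second day, NPC2 against NPC1, 3 were higher, 2 lower and 1 not called, where 47.5% of all genes were called. In NPC2 against EpiSC Rarb (above) and Rxra were higher, Rara and Rarg lower, and Rxrb and Rxrg not called; 4 of 6 is near the 69% of all genes called. Rara, with signals of 2868 and 2919 in EpiSC, 2173 and 2385 in NPC1 and 1826 and 2035 in NPC2, had a log2 change of -0.65 ± 0.070 (limma adjusted p = 0.000918; -0.43 in the value table, also called). Rarg, with 4880 and 5146, 5273 and 5987, and 3502 and 3780 in the same order, had a change of -0.53 ± 0.069 (adjusted p = 0.0018; -0.30 in the value table, also called). Rxra rose 1.46-fold (log2 change 0.55 ± 0.12, adjusted p = 0.0102), as read by its brightest probe, a call that ended with normexp (log2 change 0.15, adjusted p = 0.0688) and without NPC2 replicate B (adjusted p = 0.0519). Rxrb and Rxrg had changes of -0.13 ± 0.049 and -0.15 ± 0.061 (adjusted p = 0.0681 and 0.086), both positive in the value table. Both passed under median scaling, and Rxrg also passed, as a positive change of 0.22, with the mean over its probes.

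Of 17 genes known to respond to retinoic acid, 11 were tested, and the early hindbrain and trunk genes Hoxb1, Hoxa3, Hoxb4 and Hoxb5 were among the 6 that were not. In NPC2 against EpiSC 6 were higher, 4 lower and 1 not called (median 0.32), where 28.3% of all genes were higher and 40.7% lower. In NPC1 against EpiSC 3 were higher, 5 lower and 3 not called (median -0.31, against -0.054 for all genes), where 21.3% of all genes were higher and 29% lower. In NPC2 against NPC1 7 were higher and 1 lower (median 1.11, against -0.043 for all genes), where 20.8% of all genes were higher and 26.6% lower. The 4 largest changes in NPC2 against EpiSC were those of Nr2f1, Meis2, Nr2f2 and Meis1, all transcription factor genes. Nr2f1 had signals of 34.2 and 26.4 in EpiSC, 38.5 and 47.3 in NPC1, and 2537 and 2725 in NPC2 (log2 change 6.39 ± 0.15 in NPC2 against EpiSC, limma adjusted p = 1.24e-05). Meis2 had 13.0 and 6.57, 102 and 115, and 737 and 748 in the same order, with 1 EpiSC array well above background (log2 change 6.26 ± 0.32, adjusted p = 8.25e-05; 3.17 under normexp, also called).

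Nr2f2 changed by 5.04 ± 0.21 (2.60 under normexp), also with 1 EpiSC array well above background, and Meis1 by 2.63 ± 0.11 (limma adjusted p = 4.38e-05 and 5.21e-05). Genes that were lower, named after their values were seen, included Tgm2 (-1.28 ± 0.12), Tshz1 (-1.22 ± 0.062) and Foxa1 (-0.73 ± 0.061). These genes also answer to other signals, and the lists were not tested as sets.

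Genes with the most similar course were found by the distance between their 3 group means on the scaled log2 axis, each centred on its own mean, among 13088 other genes well above background on all 6 arrays. The nearest to Crabp2 were Ccdc177 (distance 0.076) and Ppp1r16b (0.11), and to Cyp26a1 Zkscan2 (0.059) and Me3 (0.062). Dhrs3 lay closest to Slc5a6 (0.0011), Aldh1a2 to AA467197 (0.025) and Rnf182 (0.060), and Rdh10 to Mtx1 (0.0025) and Zswim1 (0.0060). Crabp1 had Zfhx4 (0.12) and Apod (0.14) as its nearest, and Stra6 had Id3 (0.20) and Srgap3 (0.22). With 3 means and this many candidates, such neighbours describe the course and no more.

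**Figure D4:**
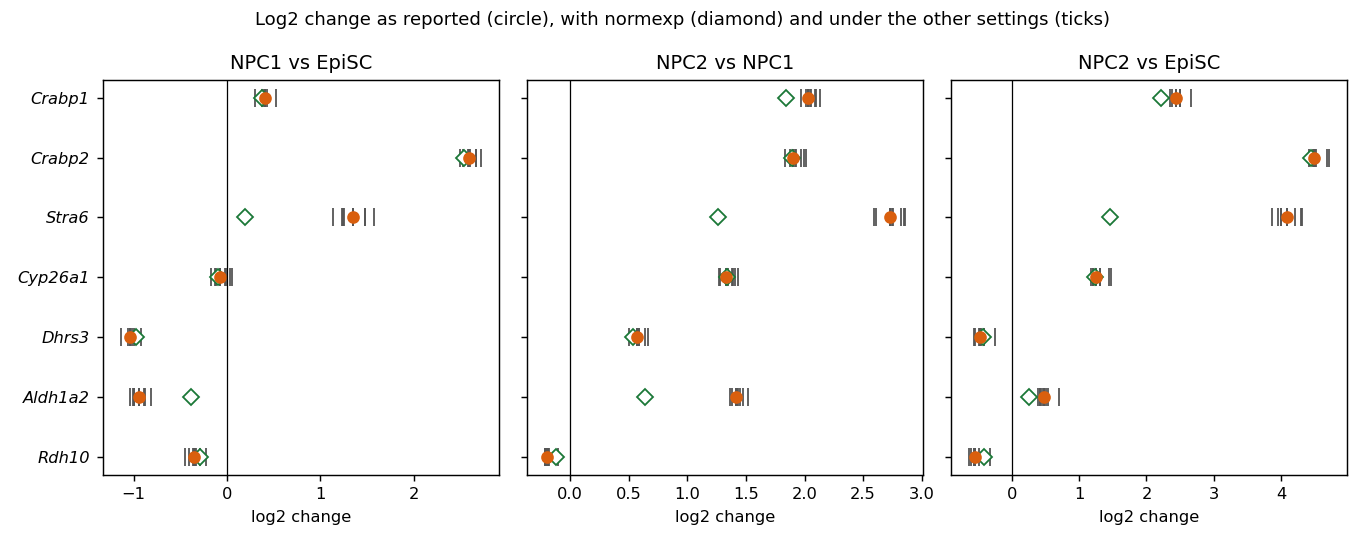
Log2 change of the 7 tested genes as reported (circle), with normexp background correction (diamond) and under the other settings, including each array left out (ticks), in the 3 comparisons. For Stra6 and Aldh1a2 the normexp value lies closer to 0 than the same gene's values under the other settings. Within each comparison every gene stays on 1 side of 0, except Cyp26a1, which lies around 0 in NPC1 against EpiSC.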

How the data were processed

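The 6 Agilent arrays (1-colour, design 028005, 2 per group) were analysed. Per the file headers, Agilent Feature Extraction 10.10.1.1 (protocol GE1_1010_Sep10) gave the deposited processed intensity, background-subtracted and not normalized between arrays, and a flag for signal well above background. The authors' deposited value table holds that intensity multiplied by 1 constant per array (2.10 to 2.41), linear and not centred; the sources used here do not say what set the constant. Its columns had medians of 52.5 and 51.3 in EpiSC, 61.8 and 59.6 in NPC1, and 65.3 and 64.3 in NPC2 (culture A, then B).

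Spots of a probe were averaged, without control spots and outliers, giving 55646 probes, of which 26744 were named through RefSeq accessions in a gene table (GRCm38.p6) that gave names and no positions; promoter windows came from RefSeq on that assembly. Processed intensities were put on the log2 scale and each array's 75th percentile was then subtracted. Each gene took its brightest probe among those well above background on both arrays of a group. The test was that of limma (version 3.58.1, R 4.3.3; eBayes after lmFit on all 6 arrays, two-sided, 3 residual and 1.88 prior degrees of freedom) with Benjamini-Hochberg adjustment over the genes of a comparison, at 0.05. The fit was tested on simulated data. A second fit over 33536 probes gave the probe-adjusted p-values. Slide and scan day were shared by all arrays, so no batch could be fitted. The number of arrays limits the precision.

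The members and lists were chosen with earlier results of these data known. The genes named were the 9 members, the 4 called genes with the largest change in NPC2 against EpiSC in each list, all receptors, and the 2 genes nearest in course to each member; others are marked. Values of 2 genes are not reported here. Alternatives covered the background correction, scaling, value table, filter, probe rule, arrays in the fit, replicate block and each array left out.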

Additional observations from a re-analysis of the deposited data

How the results depend on the processing

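Of the settings tried, none turned the direction of a called change of the 7 tested genes. The change of Cyp26a1 in NPC1 against EpiSC, not called in any setting, was positive with quantile normalization (0.031) and in the authors' value table (0.051). The fall of Rdh10 in NPC2 against NPC1 lost its call with normexp (-0.12), median scaling (-0.18), the value table (-0.10), no filter on dim probes (-0.20), the replicate block (-0.20, adjusted p = 0.0566) and in 4 of the 6 fits without 1 array (range over the 6 from -0.22 to -0.19). With adjustment over probes, Rdh10 in NPC1 against EpiSC lost it in the value table (-0.23), without the filter (-0.35, adjusted p = 0.0609) and in 3 fits without 1 array (range -0.41 to -0.29), and Crabp1 in NPC1 against EpiSC in 3 fits without 1 array (range 0.38 to 0.43). Leaving out 1 array gave 4881 (without EpiSC replicate B) to 6720 called genes in NPC1 against EpiSC. Over probes, 11188 were called in NPC1 against EpiSC, 6503 without the filter and 5672 to 7198 in the 3 fits without 1 array that moved the count most; in NPC2 against NPC1 10678 were called, 6912 without the filter and 6378 and 6498 in 2 such fits.

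The letters A and B do not pair the cultures in the data: the correlation across genes of A minus B between groups was 0.0082, 0.0059 and -0.045. With the replicate block 6868, 9873 and 6477 genes were called, against 7433, 10195 and 7015 without it, for the first day, both days together and the second day. Among the 7 tested genes of the 9, the block changed no call other than that of Rdh10 above. Among the further pathway genes named, it ended those of Rdh5 (adjusted p = 0.0794) and Nr2f1 (0.0719) in NPC1 against EpiSC and of Rxrb in NPC2 against NPC1 (0.0668), and Meis1 in NPC1 against EpiSC passed with it (0.0375).

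Signs also turned for changes that were not called with the processing described above. Rxrg in NPC1 against EpiSC was positive with quantile normalization (0.034), in the value table (0.065) and with the mean over probes (0.12). In NPC2 against EpiSC it was 0.078 in the value table and 0.22 with the mean over probes, which was called (adjusted p = 0.0168), and in NPC2 against NPC1 0.013 and 0.11. Rxrb in NPC2 against EpiSC was 0.13 with quantile normalization and 0.097 in the value table. Aldh1a3 in NPC2 against NPC1 was -0.0042 with normexp and ranged from -0.73 to 0.80 without 1 array (-0.18 without NPC1 replicate A). Rxra in NPC1 against EpiSC ranged from -0.0064 to 0.32 without 1 array. With the mean over its probes the Rxra change was 0.36, which was called (limma adjusted p = 0.00786). Without the filter Cyp26b1 had a log2 change of 1.54 ± 0.24 in NPC2 against EpiSC (adjusted p = 0.00732) on signals of which 1 was well above background. Dim signals limit Stra6, Cyp26b1, Cyp26c1, Rarb and Aldh1a3. The cause of these differences was not tested.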
